A study of Mus musculus with 16 samples.

Results

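The 40 genes described here make up a module of cell cycle and DNA replication genes, given by a list of gene symbols. All 40 were measured, among 23337 genes, in RNA-seq counts from germs of the mouse first molar, and all 40 passed the filter on low counts. By role, 10 are replication genes (Mcm2 to Mcm7, Pcna, Tyms, Rrm1 and Rrm2), 8 are regulators of G1 and S phase, 19 are mitotic genes and 3 are inhibitors of cyclin-dependent kinases (Cdkn1a, Cdkn1b and Cdkn1c). A molar germ is the tooth primordium dissected from the embryonic jaw, and the stages cover the building of the crown and its cusps. Of the 16 poly(A) libraries 8 carried the label of the upper first molar and 8 that of the lower, and each label had 1 library at each of embryonic days (E) E14.5, E15.0, E15.5, E16.0, E16.5, E17.0, E17.5 and E18.0. Every library was labelled as a wild-type male of the outbred strain CD1, with no treatment. Left and right germs of 1 embryo (individuals 1 to 8, in order of stage) were pooled in each library, and that embryo gave both the upper and the lower library of its stage. There was thus 1 library for each label and stage, and stage cannot be told apart from individual.

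The libraries held 33146758 to 44565205 gene counts, and the 40 genes rested on 385 to 32943 counts in any 1 library. Counting error and the spread between libraries were not told apart. Values are CPM, counts scaled to the gene total of the library. All libraries labelled upper were on 1 flow cell and all libraries labelled lower on another, so label and flow cell cannot be told apart. Individuals 1 to 4 and 5 to 8 were on different lanes of each. Markers of both tissues of the germ were present in every library. Those of dental epithelium (Krt5, Krt14, Cdh1, Epcam and Trp63) summed to 2298 to 3988 CPM, and those of dental mesenchyme (Msx1, Barx1, Pax9, Vim, Prrx1 and Lhx8) to 1119 to 2209 CPM. Some libraries went against their labels. Xist, the RNA of the inactive X chromosome of female cells, stood at 1499 to 1928 CPM in 14 libraries, and at 432 and 542 CPM in labelled lower individuals 1 and 2, although all 16 were labelled male. The labelled upper libraries of those individuals, 1664 and 1739 CPM, did not match their labelled lower partners, so the pairing by embryo rests on the labels. Pou3f3, a transcription factor gene of the upper jaw, alternated with stage inside both labels. It was at 6.45 to 10.1 CPM in labelled upper and 4.45 to 5.46 CPM in labelled lower libraries of the half-day stages (E14.5, E15.5, E16.5 and E17.5), against 109 to 132 CPM and 60.1 to 86.2 CPM in those of the whole-day stages (E15.0, E16.0, E17.0 and E18.0). The words "labelled upper" and "labelled lower" are kept for this reason, the half-day and whole-day stages are compared as a contrast of their own, and results that rest on the 2 libraries with low Xist are given with and without them.

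As background, a cell enters the cycle when D-type cyclins, the products of Ccnd1, Ccnd2 and Ccnd3, activate kinases that release E2F factors from the retinoblastoma proteins. E2F targets then include the MCM2 to MCM7 subunits of the replicative helicase, the sliding clamp PCNA and the enzymes that supply nucleotides for DNA synthesis (RRM1, RRM2 and TYMS). A later wave, which includes the mitotic cyclins, the checkpoint kinases and the spindle proteins, depends on CCAAT boxes bound by NF-Y and on the cell cycle homology region read by DREAM and MuvB complexes. In the molar germ, the enamel knots, which are signalling centres of the epithelium, stop dividing and express Cdkn1a while the epithelium and mesenchyme around them go on dividing. In bulk RNA, fewer dividing cells and less RNA per dividing cell cannot be told apart.

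The sequences upstream of these genes were searched for the words of the E2F and mitotic patterns. RefSeq (build GRCm38.p6) gave the 250 bases before the start of 32 of the 40 genes. Searched on both strands, an E2F word (TTTCCCGC, TTTCGCGC, TTTGCCGC or TTTGGCGC) was present upstream of 3 of 9 replication genes and 1 of 16 mitotic genes, beside 1.86% of all 32851 tabulated promoters. A cell cycle homology word (TTTGAA or TTCGAA) together with a CCAAT box (CCAAT) was present upstream of 8 of 16 mitotic and 2 of 9 replication genes, beside 6.02% of all promoters. A CCAAT box alone was found in 14 of 16 mitotic and 8 of 9 replication genes, beside 33.8%. A gene counted if any of its windows held the words, while the share over all promoters counts each window by itself. Mcm7 had 2 windows, and only 1 of them held an E2F word and a homology word. These are matches of letters, not bound sites. The sequences below are examples chosen to set E2F words beside homology words with CCAAT boxes. Each window lies outside the annotated span of its own gene, and transcripts of other genes were not checked. The examples do not stand for a whole role, since Mcm2 held a homology word and a CCAAT box but no E2F word. Capitals mark the words, and each sequence runs 5′ to 3′ towards the start. Mcm5 (chr8:75109259-75109508, plus strand) and Mcm6 (chr1:128359706-128359955, minus strand) each held E2F words, of which a pair on opposite strands overlapped, and CCAAT boxes near the start, with no homology word.
Mcm5: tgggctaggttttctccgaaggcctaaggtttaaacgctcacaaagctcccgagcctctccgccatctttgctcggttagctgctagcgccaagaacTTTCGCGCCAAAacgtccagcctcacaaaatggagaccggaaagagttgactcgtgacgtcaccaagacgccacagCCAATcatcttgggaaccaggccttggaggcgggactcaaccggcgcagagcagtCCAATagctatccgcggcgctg
Mcm6: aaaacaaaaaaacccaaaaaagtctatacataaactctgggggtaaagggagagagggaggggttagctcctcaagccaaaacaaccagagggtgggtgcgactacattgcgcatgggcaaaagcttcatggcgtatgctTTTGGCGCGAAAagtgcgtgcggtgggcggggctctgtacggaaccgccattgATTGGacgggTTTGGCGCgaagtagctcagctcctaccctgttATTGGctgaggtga
Ccnb2 (chr9:70421555-70421804, minus strand), Bub1b (chr2:118597961-118598210, plus strand) and Top2a (chr11:99024190-99024439, minus strand) each held homology words and CCAAT boxes, with no E2F word.
Ccnb2: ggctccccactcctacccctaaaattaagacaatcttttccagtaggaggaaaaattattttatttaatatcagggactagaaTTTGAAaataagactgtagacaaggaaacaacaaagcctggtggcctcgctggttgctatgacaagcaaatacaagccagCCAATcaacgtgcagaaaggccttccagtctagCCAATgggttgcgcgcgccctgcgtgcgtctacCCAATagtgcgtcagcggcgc
Bub1b: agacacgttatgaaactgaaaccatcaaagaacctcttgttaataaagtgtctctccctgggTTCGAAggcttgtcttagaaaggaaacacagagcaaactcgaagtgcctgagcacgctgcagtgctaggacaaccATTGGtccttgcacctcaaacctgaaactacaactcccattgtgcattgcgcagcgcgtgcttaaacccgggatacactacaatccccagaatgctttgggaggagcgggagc
Top2a: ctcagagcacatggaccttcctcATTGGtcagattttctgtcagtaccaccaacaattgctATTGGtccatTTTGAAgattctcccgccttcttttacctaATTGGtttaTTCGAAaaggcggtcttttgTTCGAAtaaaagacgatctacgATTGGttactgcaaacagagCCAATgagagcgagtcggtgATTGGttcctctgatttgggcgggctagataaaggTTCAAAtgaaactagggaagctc
Top2a held 4 homology words and 6 CCAAT boxes, against 1 and 3 in Ccnb2 and 1 and 1 in Bub1b.

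Levels were compared between genes per kilobase of annotated exon (GENCODE M21, build GRCm38), as means over the 16 libraries. The highest was Cdkn1c, the imprinted inhibitor p57, at 163 CPM per kb, followed by Pcna at 99.5 and Ccnd2 at 76.8 CPM per kb. Cdc20, the activator of the anaphase-promoting complex, and Top2a, the topoisomerase that untangles chromosomes, led the mitotic genes at 60.0 and 58.3 CPM per kb. The 6 Mcm genes lay between 23.6 CPM per kb (Mcm2) and 47.8 CPM per kb (Mcm5). Mcm5, Mcm6 and Mcm4 were within 0.1 CPM per kb of each other. The lowest were the E-type cyclin Ccne2 at 4.10 and the licensing factor Cdc6 at 5.98 CPM per kb.

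Replication and mitotic genes stayed close in most libraries, and the widest gap was at E18.0 in the labelled upper ones. For each library, the mean over a role of the log2 CPM relative to each gene's own mean over the 16 libraries was taken, as a description with no test. In the labelled upper libraries, from E14.5 to E18.0, the replication value was 0.20, 0.15, -0.01, -0.16, -0.03, -0.27, 0.12 and -0.12, and the mitotic value was 0.21, 0.15, 0.04, -0.22, -0.03, -0.31, -0.02 and -0.43. Replication minus mitotic stayed between -0.05 and 0.06 up to E17.0 and was 0.14 at E17.5 and 0.31 at E18.0. In the labelled lower libraries the replication value was 0.07, 0.05, 0.22, 0.04, 0.00, -0.10, -0.04 and -0.12, and the mitotic value was 0.12, 0.14, 0.17, 0.03, 0.14, -0.02, 0.07 and -0.02. There the difference lay between -0.14 and 0.05 in every library, and it was below 0 in all 4 from E16.5 on. Thus the gap was at most 0.14 in size in 15 of 16 libraries, of opposite sign in the later stages of the 2 labels, and exceeded that in a single library, labelled upper at E18.0.

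**Figure D1:**
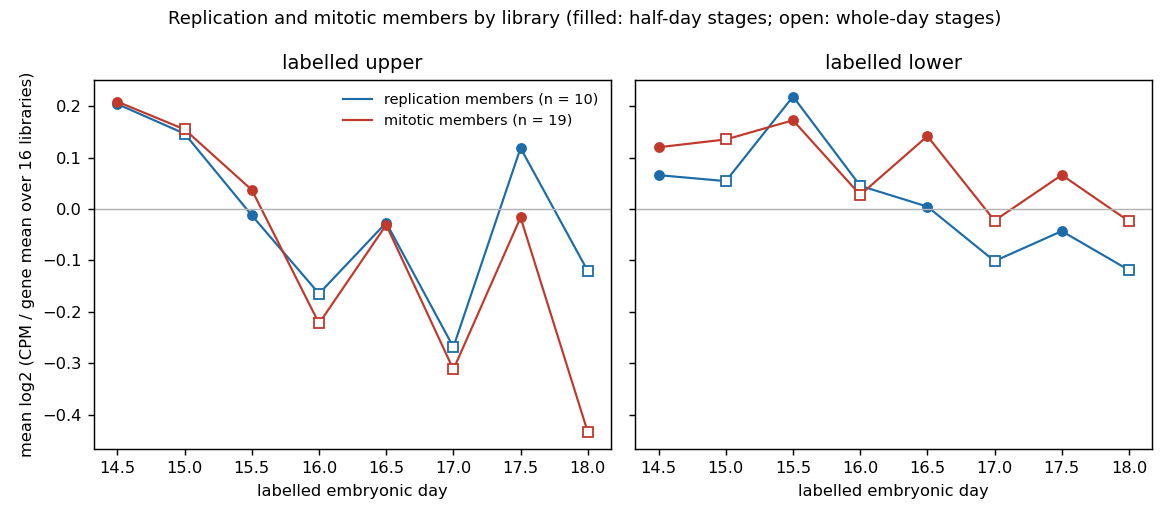
Mean log2 CPM of the 10 replication and 19 mitotic genes, each relative to its own mean over the 16 libraries, against labelled embryonic day, with 1 point per library. In the labelled upper panel the mitotic line ends at -0.43 and the replication line at -0.12, while in the labelled lower panel the mitotic line lies above the replication line from E16.5 on.

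In the labelled upper libraries mitotic genes fell with labelled stage. Of the 19 mitotic genes, 8 fell at an adjusted p below 0.05 (edgeR quasi-likelihood test of a linear slope), and all 19 slopes were below 0, with a median of -0.15 log2 per day. None of the 10 replication genes passed, although all 10 slopes were below 0 (median -0.06, adjusted p from 0.11 to 0.46, 2 with an unadjusted p under 0.05). Over all genes the median slope was 0.00, and 2.41% of genes fell and 3.72% rose. An unadjusted p under 0.05 was found for 4049 of all 16287 genes. The 8 were Ccnb2 and Cdk1 (cyclin B2 and the mitotic kinase), Bub1b (a spindle checkpoint kinase), Birc5 (survivin, of the chromosomal passenger complex), Ube2c and Cdc20 (which drive the destruction of mitotic proteins), and Nusap1 and Tpx2 (which organise spindle microtubules). Ccnb2 was at 46.1 CPM at the lowest, 62.0 at the median and 82.0 at the highest of the 8 labelled upper libraries. It was highest at E14.5 and lowest at E18.0, and its slope was -0.21 ± 0.03 log2 per day (SE, adjusted p = 0.0103). Birc5 went from 97.4 CPM at E14.5 to 58.0 CPM at E18.0, with a slope of -0.19 ± 0.04 (SE, adjusted p = 0.0216). Cdc20 went from 130 to 77.7 CPM, with a slope of -0.18 ± 0.04 (SE, adjusted p = 0.0306).

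Replication genes in the same libraries were not lowest at the latest stage. Pcna was at 193 CPM at the lowest, 230 at the median and 274 at the highest library. Its 3 highest values were at E14.5, E15.0 and E17.5, its lowest was at E17.0, and its slope was -0.07 ± 0.04 log2 per day (SE, adjusted p = 0.30). Rrm2, the regulated subunit of ribonucleotide reductase, ranged from 83.6 through a median of 105 to 131 CPM and had the steepest slope of the role, -0.11 ± 0.05 (SE, adjusted p = 0.23). Rrm1, its partner subunit, ranged from 192 through 214 to 243 CPM, with a slope of -0.06 ± 0.03 (SE, adjusted p = 0.28). Mcm4 ranged from 154 through 177 to 208 CPM and had the smallest p of the role (slope -0.09 ± 0.03 SE, adjusted p = 0.11). For each of Pcna, Rrm2, Rrm1 and Mcm4 the lowest library was the one at E17.0.

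The calls of the labelled upper slope moved with single libraries. Without individuals 1 to 8 in turn, 0, 1, 3, 10, 5, 3, 17 and 0 of the 19 mitotic genes fell, where 0.381%, 0.675%, 1.65%, 2.09%, 1.88%, 1.44%, 4.02% and 0.338% of all genes did. All 19 slopes stayed below 0 each time, with medians from -0.19 (without individual 7) to -0.12 (without individual 8). Ccnb2 missed the threshold without individual 1 or 8, Birc5 and Nusap1 also without 2, and Cdk1, Bub1b, Ube2c, Cdc20 and Tpx2 also without 2, 3 or 6, with Bub1b, Ube2c and Tpx2 lost without 5 as well. Among replication genes Mcm4, Mcm5 and Rrm2 fell without individual 7. With the sequencing lane as a term, which is tied to stage, the median mitotic slope was -0.24 and the median replication slope -0.12, and no member passed, nor did any but 2 of all genes. Markers of other cells moved along with stage in these libraries: 5 of 6 skeletal muscle markers rose (summed level 1.85 to 3.32 CPM in individuals 1 to 4 and 9.52 to 45.7 CPM in individuals 5 to 8), 4 of 6 markers of cornifying epithelium rose (95.0 to 227 and 270 to 508 CPM), 3 of 8 erythroid markers fell (65.3 to 153 and 39.7 to 61.3 CPM), and 2 of 7 macrophage markers, Lyz2 and C1qc, rose (49.9 to 67.0 and 64.0 to 84.3 CPM). Of the dental mesenchyme markers Prrx1 fell (-0.24 log2 per day, adjusted p = 0.042). None of these markers was at 0 in all libraries, and their part in the slopes was not tested.

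In the labelled lower libraries no mitotic gene passed. The 3 members that fell were 1 replication gene, Mcm7, and the G1 and S regulators Ccne1 and Cdt1. Mcm7, a helicase subunit, fell by 0.10 ± 0.02 log2 per day (SE, adjusted p = 0.0422), and ranged from 159 through a median of 184 to 203 CPM, with its 4 highest values at the 4 earliest stages. Ccne1, the E-type cyclin that partners CDK2 at the start of S phase, fell from 39.2 CPM at E14.5 to 25.9 CPM at E18.0 (slope -0.17 ± 0.02 SE, adjusted p = 0.0071). Cdt1, which loads the helicase at origins, fell from 70.9 to 56.1 CPM (slope -0.09 ± 0.02 SE, adjusted p = 0.0267). In labelled upper libraries these 3 had slopes of -0.07, -0.14 and -0.04, none past the threshold. The median slope was -0.07 over the 10 replication genes, 9 of them below 0, and -0.04 over the 19 mitotic genes, all below 0. Over all genes the median was 0.00, 1.49% fell and 2.63% rose. Ccnb2 ranged only from 64.8 through 69.3 to 76.8 CPM here (slope -0.03 ± 0.03 SE, adjusted p = 0.54), inside its labelled upper range. Without the 2 libraries of low Xist, without the one at E14.5 alone, or with the lane as a term, no member passed in labelled lower libraries, and 1, 34 and 19 of all genes did. Without the 2 libraries the slopes of Mcm7, Ccne1 and Cdt1 were -0.14, -0.18 and -0.10, with adjusted p of 0.13, 0.11 and 0.17. Mcm7 missed the threshold without any 1 of individuals 1, 2, 3, 4, 6, 7 and 8, and Cdt1 also without 2, 7 or 8. In these libraries 2 of 6 cartilage markers rose with stage (summed level 141 to 199 CPM in individuals 1 to 4 and 211 to 288 CPM in individuals 5 to 8) and 1 of 8 erythroid markers fell (32.3 to 39.9 and 22.0 to 29.6 CPM). The bone marker Spp1 (0.70 log2 per day, adjusted p = 0.019; summed bone markers 481 to 623 and 541 to 675 CPM) and the enamel gene Enam (0.80, adjusted p = 0.020; summed odontoblast and ameloblast markers 16.2 to 21.1 and 17.4 to 25.6 CPM, with 1 marker at 0 in all labelled lower libraries) rose. The part of these markers was not tested.

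**Figure D2:**
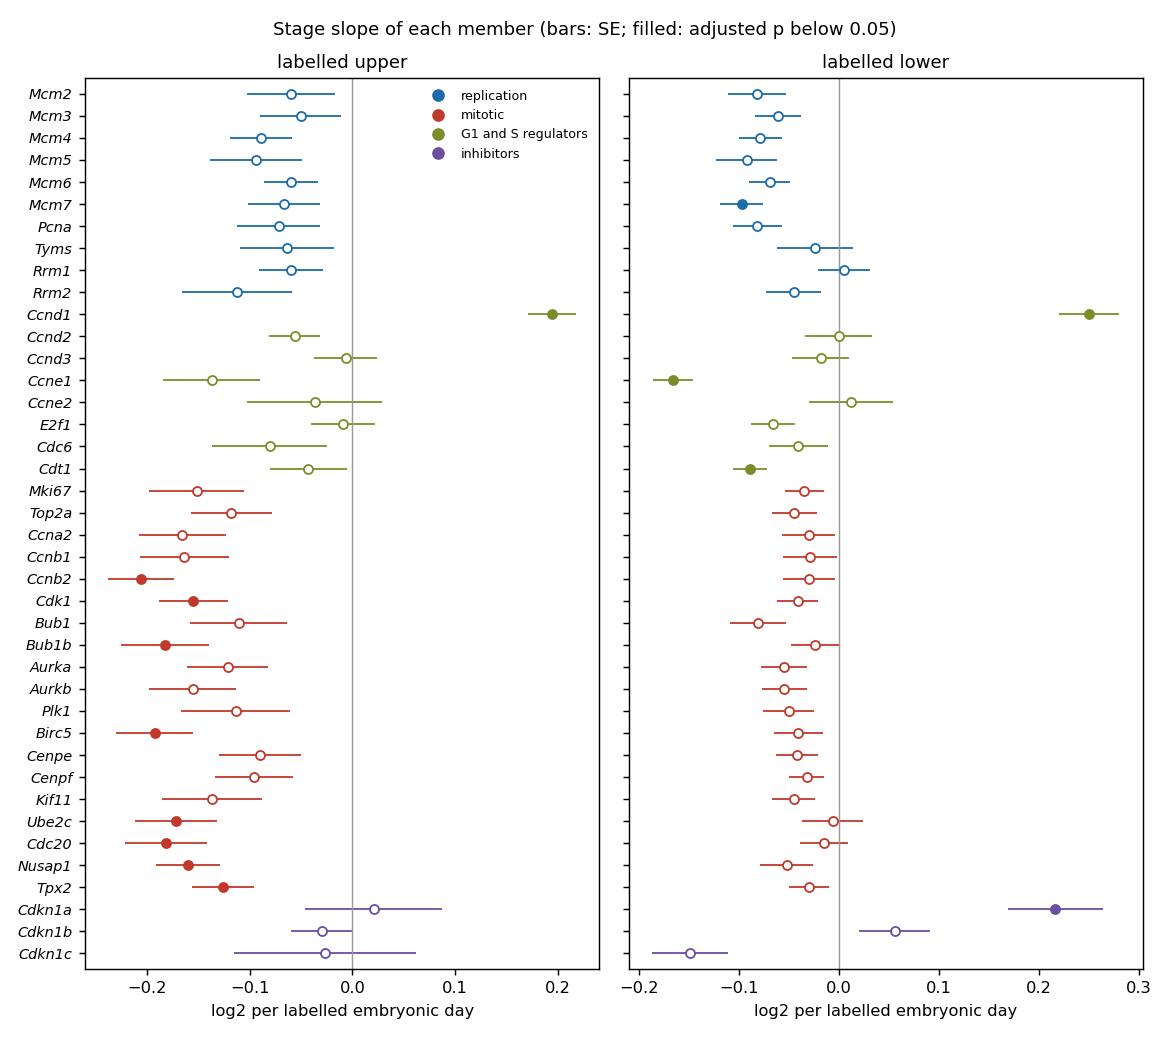
Slope of log2 expression per labelled embryonic day for each of the 40 genes in the 8 labelled upper and the 8 labelled lower libraries, with SE bars and filled points for an adjusted p below 0.05. The mitotic points lie at -0.09 to -0.21 on the left and at -0.01 to -0.08 on the right, while replication points lie between -0.11 and -0.05 on the left and between -0.10 and 0.01 on the right.

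The slopes of both labels were compared directly, since a call in 1 label alone does not show a difference. None of the 40 genes passed, where 1.28% of all genes did in either direction. For the 19 mitotic genes the labelled upper slope was the lower one in all 19, by a median of 0.11 log2 per day. An unadjusted p under 0.05 was found for 10 of them and for 2316 of all 16287 genes. For the 10 replication genes the difference was above 0 in 5 and below 0 in 5, with a median of 0.01. Ccnb2 had the smallest p, with a difference of -0.17 ± 0.05 (SE, adjusted p = 0.083). With the individual as a block, which pairs the upper and lower library labelled as 1 embryo, 5 mitotic genes passed (Ccnb2, Bub1b, Birc5, Ube2c and Cdc20), where 1.2% of all genes had a lower labelled upper slope, and Ccnb2 then had an adjusted p of 0.0296. Without the 2 libraries of low Xist the mitotic median was -0.05 with 2 of 19 above 0, the replication median was 0.12 with all 10 above 0, and none passed. Without them, therefore, the larger median gap between the labels was in the replication genes.

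**Figure D3:**
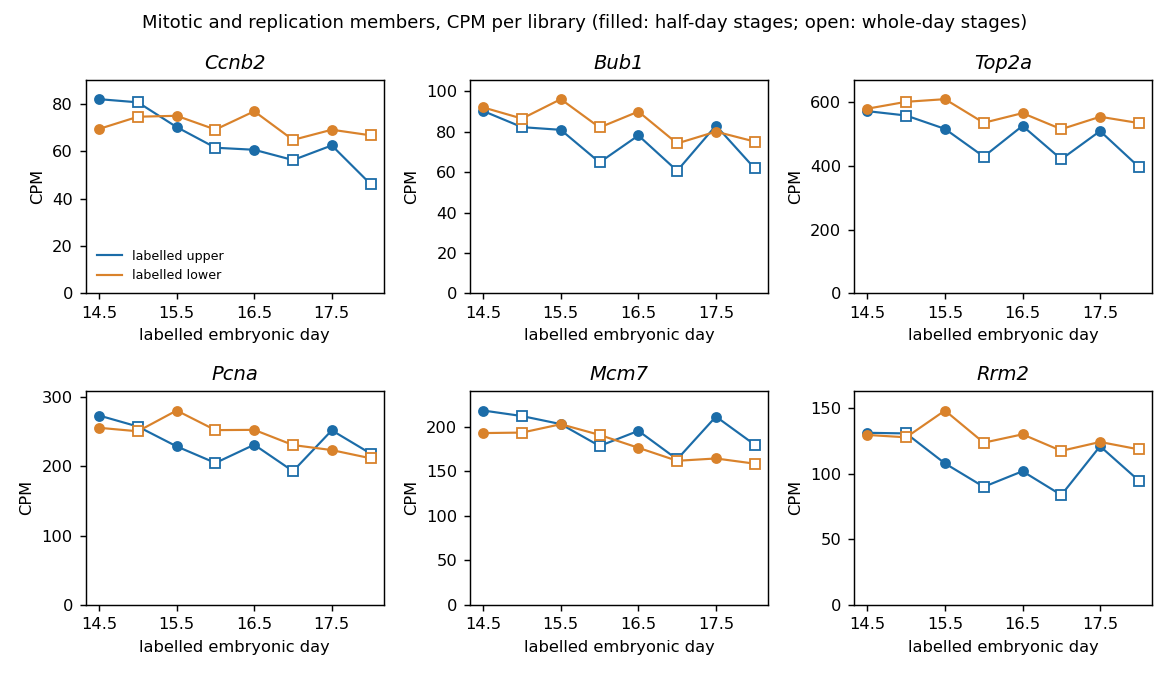
CPM per library, on axes from 0, of 3 mitotic genes (Ccnb2, Bub1 and Top2a) and 3 replication genes (Pcna, Mcm7 and Rrm2) against labelled embryonic day, with 1 line per label. Ccnb2 in labelled upper libraries goes from 82.0 to 46.1 CPM, and in the labelled upper libraries each of the 6 genes is higher at E17.5 than at E17.0.

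Among the G1 regulators, Ccnd1 went the other way and rose with stage in both labels. In labelled upper libraries Ccnd1 ranged from 130 through a median of 152 to 209 CPM, and in labelled lower libraries from 242 through 326 to 454 CPM. The labels did not overlap. Its slope was 0.19 ± 0.02 log2 per day in labelled upper (SE, adjusted p = 0.0043) and 0.25 ± 0.03 in labelled lower libraries (SE, adjusted p = 0.0071), and the slopes did not differ at the threshold (difference -0.05 ± 0.04 SE, adjusted p = 0.61). Over all stages Ccnd1 was 2.12-fold lower in labelled upper libraries (log2 difference -1.08 ± 0.05 SE, adjusted p = 1.1e-08), lower in 8 of 8 individuals, and this call held under all 14 alternatives tried. The slope calls held in labelled upper libraries without any 1 library but not with the lane as a term (slope 0.15, adjusted p = 0.35), and were lost in labelled lower libraries without the pair of low Xist (slope 0.25, adjusted p = 0.12) or without individual 1 alone (slope 0.24, adjusted p = 0.059). The opposite strand at Ccnd1 carries LTO1, whose exons share 23.4% of the Ccnd1 exon bases, and the libraries do not mark strand.

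Ccnd2 and Ccnd3, the other D-type cyclins, were instead higher in labelled upper libraries. Ccnd2 ranged from 735 through 779 to 922 CPM in labelled upper and from 567.8 through 656 to 722 CPM in labelled lower libraries. The ranges did not overlap, and the log2 difference was 0.27 ± 0.05 (SE, adjusted p = 0.00066), with labelled upper higher in 8 of 8 individuals. Ccnd3 ranged from 162 through 180 to 205 CPM and from 144 through 159 to 176 CPM. The ranges overlapped, and the difference was 0.21 ± 0.05 (SE, adjusted p = 0.0057), with 7 of 8 individuals higher. Neither had a called slope (Ccnd2 -0.06 and 0.00, Ccnd3 -0.01 and -0.02 log2 per day in labelled upper and lower). Together the 3 cyclins were thus split by tooth label, with Ccnd1 on 1 side and Ccnd2 and Ccnd3 on the other.

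The 3 inhibitors also differed with tooth label, in both directions. Cdkn1c, which halts the cycle in differentiating cells, ranged from 263 through 417 to 510 CPM in labelled upper and from 214 through 250 to 343 CPM in labelled lower libraries. It was higher in labelled upper libraries (log2 difference 0.64 ± 0.13 SE, adjusted p = 0.0018), in 8 of 8 individuals. Cdkn1a, the inhibitor p21, ranged from 23.4 through 30.6 to 38.1 CPM and from 32.4 through 47.6 to 60.9 CPM. It was lower in labelled upper libraries (-0.60 ± 0.12 SE, adjusted p = 0.0011), again in 8 of 8. Cdkn1b, the inhibitor p27, ranged from 68.1 through 72.2 to 82.2 CPM and from 70.0 through 87.9 to 98.3 CPM, with a difference of -0.22 ± 0.06 (SE, adjusted p = 0.014) and 7 of 8 individuals lower. The ranges of the labels overlapped for all 3. With stage, Cdkn1a rose in labelled lower libraries (0.22 ± 0.05 log2 per day SE, adjusted p = 0.041), from 32.4 CPM at E14.5 to 55.6 CPM at E18.0. Without the pair of low Xist that slope was 0.12 (adjusted p = 0.41), while the Cdkn1a tooth difference was -0.76 (adjusted p = 0.00029). No other inhibitor slope passed, and Cdkn1c had one of -0.15 ± 0.04 in labelled lower libraries (SE, adjusted p = 0.060). The antisense gene Gm44732 shares 30.7% of the exon bases of Cdkn1c.

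**Figure D4:**
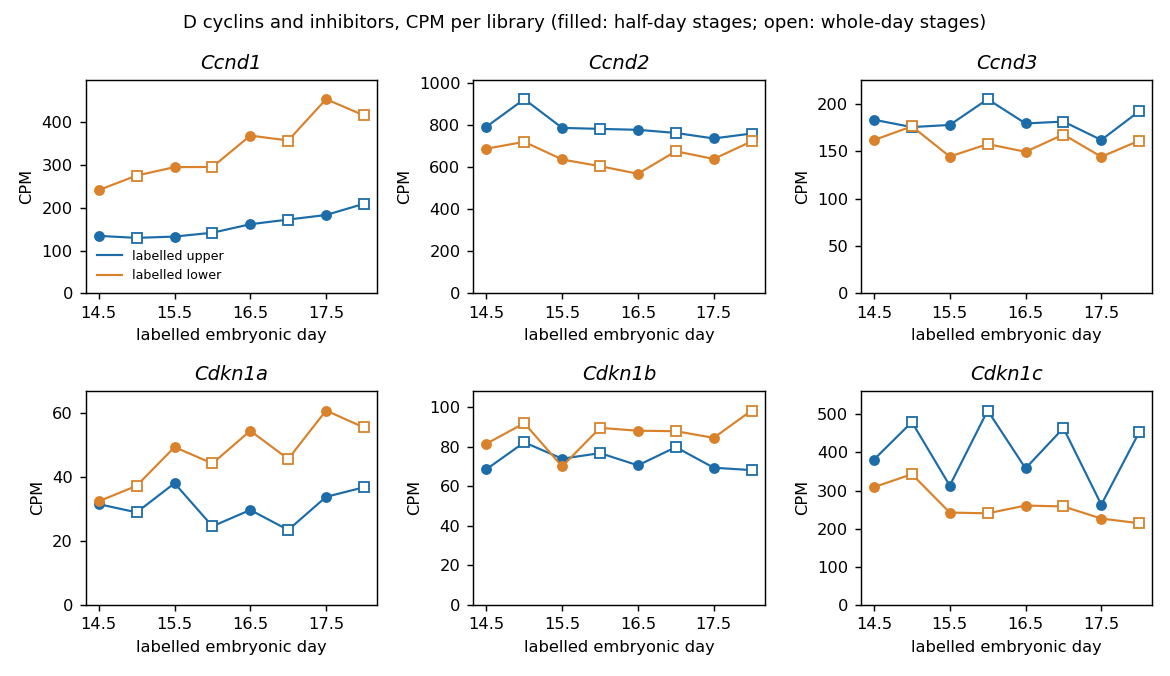
CPM per library, on axes from 0, of the D-type cyclins and the 3 inhibitors against labelled embryonic day, with 1 line per label. The Ccnd1 lines rise and never meet, and Cdkn1c alternates between 263 to 381 CPM (filled points) and 453 to 510 CPM (open points) in the labelled upper libraries.

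Over the whole module the tooth labels differed in 14 of 40 genes, 5 higher and 9 lower in labelled upper libraries. Of all genes 18.1% were higher and 18.1% lower, 5902 of 16287 together, so the share of members was near that of all genes. Besides the cyclins and inhibitors above, Mcm4 (0.13 ± 0.04 SE, adjusted p = 0.025) and E2f1 (0.13 ± 0.05 SE, adjusted p = 0.047) were higher, and Rrm2, Ccne2, Top2a, Plk1, Cenpe and Cenpf were lower. Replication genes were divided. Mcm4 ranged from 154 to 208 CPM in labelled upper and from 147 through 161 to 181 CPM in labelled lower libraries, while Rrm2, at 117 through 126 to 148 CPM in labelled lower libraries, was lower in labelled upper ones (-0.25 ± 0.08 SE, adjusted p = 0.024). The median over the 10 was -0.02, with 5 on each side. Mitotic genes were all on the lower side. All 19 differences were below 0, with a median of -0.16 beside 0.01 over all genes. The 4 that passed were a share near the 18.1% of all genes called lower. Top2a ranged from 396 through 512 to 571 CPM in labelled upper and from 514 through 559 to 608 CPM in labelled lower libraries (-0.19 ± 0.06 SE, adjusted p = 0.022). Cenpf, a kinetochore and nuclear matrix protein, ranged from 89.3 through 118 to 123 CPM and from 121 through 129 to 134 CPM (-0.20 ± 0.05 SE, adjusted p = 0.012). Both were lower in labelled upper libraries in 8 of 8 individuals, though the ranges overlapped. Plk1, a mitotic kinase, and Cenpe, a kinetochore motor, differed by -0.24 and -0.19. The calls of Ccne2, Cenpe and Cenpf held under all 14 alternatives. Rrm2 and Plk1 missed the threshold without individual 3, 4 or 5, Top2a without individual 3, Mcm4 without 1, 2 or 5, and E2f1 under 9 of the 14, RLE scaling and no filter among them.

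With the individual as a block, 5 genes were higher and 14 lower, among them 9 mitotic genes, where 18.7% and 18.9% of all genes were called. Mcm7, Mki67, Ccna2, Bub1, Kif11 and Tpx2 were then added and E2f1 was lost. Without the 2 libraries of low Xist 3 genes were higher (Ccnd2, Ccnd3 and Cdkn1c) and 20 lower, with 13 of 19 mitotic genes and Tyms, Rrm1 and Rrm2 among them, where 14.4% of all genes were higher and 16.4% lower. Mcm4 then missed the threshold (0.10, adjusted p = 0.15). Cell type markers also differed between the labels: all 6 osteoclast markers were lower in labelled upper libraries (summed level 197 to 321 against 252 to 1009 CPM), as were 4 of 6 of cornifying epithelium and 4 of 7 of macrophages, while 5 of 6 of dental mesenchyme (1571 to 2209 against 1119 to 1684 CPM) and 4 of 8 erythroid markers were higher. Of the 5 dental epithelium markers 1 was higher and 2 were lower, and of 6 endothelial markers 2 were lower. Of 6 cartilage markers 3 were lower (Hapln1, Acan and Sox9) and 1 higher (Col2a1), with summed levels of 94.0 to 153 against 141 to 288 CPM. Of 6 bone markers Spp1 was lower (-3.33) and Ibsp and Runx2 were higher (0.85 and 0.58), with sums of 378 to 767 against 481 to 675 CPM. The skeletal muscle marker Ckm was lower (-1.91). The largest erythroid differences were those of the globin genes Hbb-y and Hba-x, higher by 5.93 and 3.72 log2 in labelled upper libraries (adjusted p = 3.9e-07 and 3.7e-07). Both also fell with stage in labelled upper libraries (slopes -1.33 and -0.79 log2 per day, adjusted p = 0.0033 and 0.011). Whether the libraries of the 2 labels differed in embryo age was not tested. The part of these markers in the differences was not tested.

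Between the half-day and the whole-day stages, mitotic genes were higher at half-day stages and Cdkn1c was lower. At an adjusted p below 0.05, 7 members were higher at half-day stages and 3 lower, where 7.01% of all genes were higher and 8.52% lower. The 7 were Bub1, Ube2c, Bub1b, Aurka, Birc5, Cdk1 and Cdkn1a, and the 3 were Ccnd3, Cdkn1b and Cdkn1c. Differences were above 0 for all 19 mitotic genes (median 0.14) and for all 10 replication genes (median 0.12), beside a median of 0.01 over all genes. Of the mitotic genes 6 passed and 17 had an unadjusted p under 0.05, and of the replication genes none passed and 8 had one. Of all 16287 genes 4913 had one. Here, unlike in the labelled upper slope, the medians of both roles were alike in size.

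Bub1, a spindle checkpoint kinase, had the smallest p among the members. In labelled upper libraries it was at 78.2 to 90.2 CPM at half-day and 60.7 to 82.3 CPM at whole-day stages, and in labelled lower libraries at 80.1 to 96.1 and 74.2 to 86.5 CPM. These ranges overlapped within each label, but the half-day library was the higher one in all 4 pairs of neighbouring stages of both labels, and the fitted difference was 0.22 ± 0.05 (SE, adjusted p = 0.0071). Ube2c, whose exons share 22.8% of their bases with Tnnc2 on the opposite strand, differed by 0.19 ± 0.04 (SE, adjusted p = 0.011). Cdkn1a differed by 0.30 ± 0.07 (SE, adjusted p = 0.0088). Its half-day library was the higher one in 3 of 4 pairs of each label, and its ranges overlapped within both labels. It missed the threshold with a linear day in place of the spline, in either label alone, and without individual 3 or 6. Rrm1 was the replication gene with the smallest p, at 211 to 261 CPM in the half-day and 192 to 233 CPM in the whole-day libraries of both labels (0.13 ± 0.04 SE, adjusted p = 0.053).

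Cdkn1c took the opposite course. In labelled upper libraries it was at 263 to 381 CPM at half-day and at 453 to 510 CPM at whole-day stages, with no overlap. In labelled lower libraries it was at 226 to 309 and 214 to 343 CPM, which overlapped. The difference over both labels was -0.36 ± 0.10 (SE, adjusted p = 0.023), and within the labels it was -0.59 ± 0.09 in labelled upper (SE, adjusted p = 0.0038) and -0.08 ± 0.09 in labelled lower libraries (SE, adjusted p = 0.70). The difference between the labels, -0.50 ± 0.13 (SE), had an adjusted p of 0.11, and no member passed that test, where 0.841% of all genes did. The unadjusted p was under 0.05 for 3 of the 40 and for 1580 of all 16287 genes. DESeq2 called 1 member, Cdkn1c, and 345 of all genes.

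Pairs of neighbouring stages showed how even the alternation was. In labelled upper libraries the half-day library was the higher of the pair in 4 of 4 pairs for 15 of 19 mitotic and 10 of 10 replication genes. In labelled lower libraries this held for 6 of 19 and 5 of 10. The share of all genes higher in 4 of 4 pairs was not counted, so these counts only describe the members. The median mitotic log2 difference over the 4 pairs, from the earliest, was 0.04, 0.24, 0.28 and 0.41 in labelled upper and -0.01, 0.18, 0.17 and 0.08 in labelled lower libraries. The median replication difference was 0.06, 0.15, 0.26 and 0.24, and 0.02, 0.16, 0.11 and 0.06. The earliest pair was thus the smallest in both roles and both labels. In each pair the half-day library is also the earlier one, and unlike these pairs the fitted differences above carry stage terms.

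The half-day calls were few within a label and moved with single individuals. In labelled upper libraries alone 2 members were higher (Bub1 and Aurka), where 3.21% of all genes were, and 1 lower (Cdkn1c). In labelled lower libraries alone none passed, where 6.48% of all genes did in either direction. There 9 members had an unadjusted p under 0.05, which was not counted over all genes. Without individuals 1 to 8 in turn, 15, 20, 1, 2, 3, 0, 3 and 3 members were higher, where 5.99%, 5.47%, 3%, 4.8%, 5.59%, 2.58%, 3.81% and 4.55% of all genes were. The members' count therefore moved more than the count over all genes. Bub1 kept its call without any 1 individual other than 6. Without the 2 libraries of low Xist 8 members were higher, where 5.48% of all genes were, and none lower, and Cdkn1c also missed the threshold without individual 1, 2, 3 or 6. Ccnd3 missed it under 12 of 15 alternatives. Of these 15, Cdkn1b kept its call under 4, Cdk1, Bub1b and Birc5 under 7 each, and Aurka under 8. Cdkn1c kept its call under 9, Ube2c and Cdkn1a under 10 each, and Bub1 under 13. Cell type markers moved along with the stage set as well. The 5 dental epithelium markers named above were higher at half-day stages (summed level 3143 to 3988 against 2298 to 3109 CPM in labelled upper, 3367 to 3676 against 2794 to 3071 CPM in labelled lower libraries), and 4 of 6 dental mesenchyme markers were lower (1571 to 1992 against 1861 to 2209 CPM, and 1119 to 1417 against 1325 to 1684 CPM). Of the bone markers 2 of 6 were lower (378 to 624 against 705 to 767 CPM in labelled upper, 481 to 614 against 573 to 675 CPM in labelled lower libraries). Of 6 cartilage markers 2 were higher (Sox9 and Hapln1) and 2 lower (Matn1 and Col9a1), with sums of 94.0 to 153 against 98.5 to 116 CPM and 167 to 288 against 141 to 279 CPM. The erythroid genes Hbb-y (-0.87, adjusted p = 0.014) and Hba-x (-0.77, adjusted p = 0.0029) were lower, and the osteoclast gene Dcstamp (0.55, adjusted p = 0.025) was higher. Their part in the differences of the members was not tested.

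**Figure D5:**
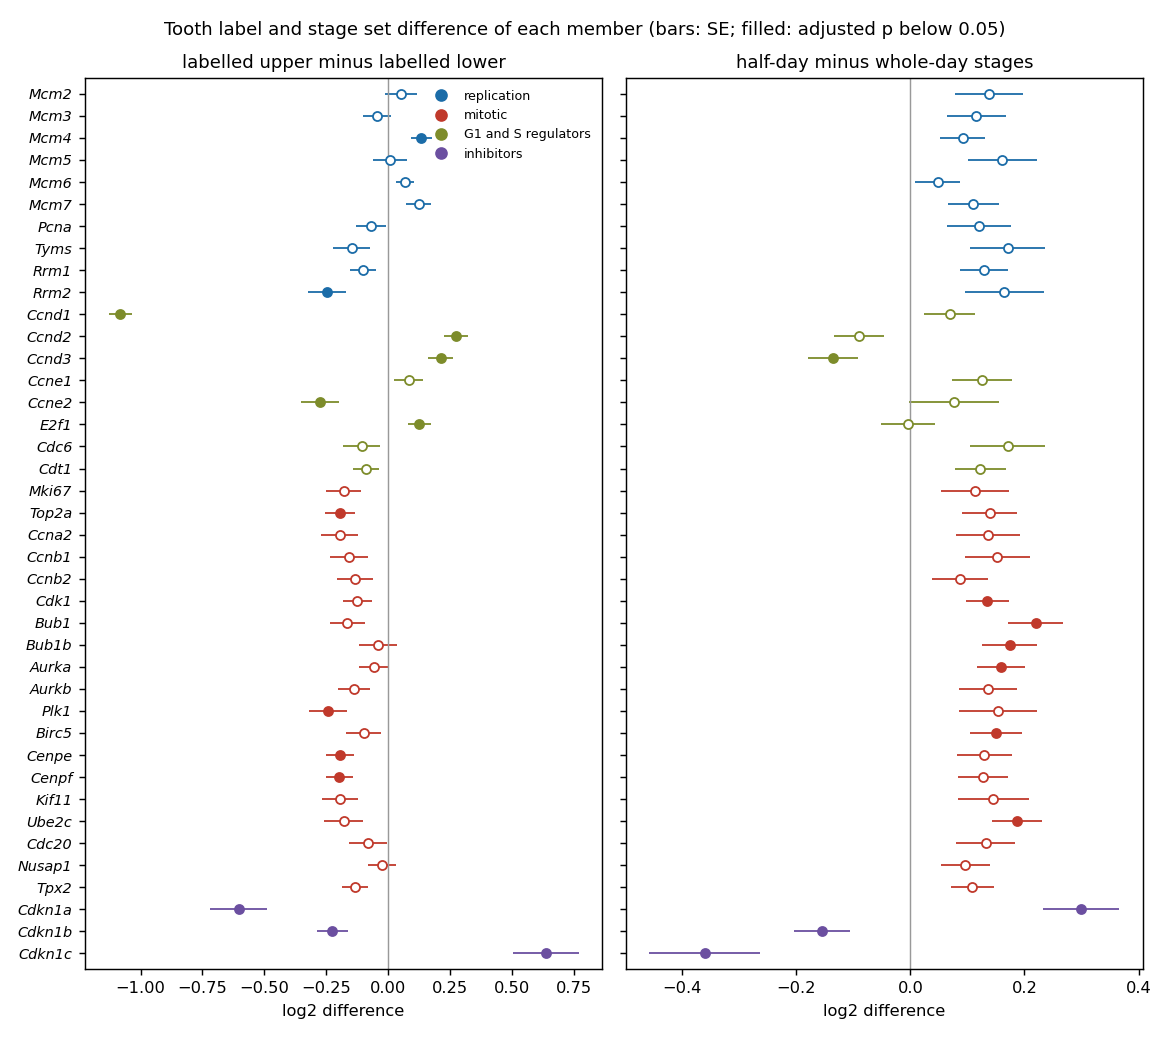
Log2 difference of each of the 40 genes between labelled upper and labelled lower libraries, and between half-day and whole-day stages, with SE bars and filled points for an adjusted p below 0.05. Mitotic genes lie below 0 on the left and above 0 on the right, and Ccnd1 stands apart at -1.08 on the left.

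A wider set of 125 genes of the same pathways outside the module, of which 124 were tested, was described in the same way. In the labelled upper slope 17 fell, 13.7% beside 2.41% of all genes, and 1 rose, the pocket protein gene Rbl2 (0.11 ± 0.03 log2 per day SE, adjusted p = 0.037). Of 19 spindle and cytokinesis genes 6 fell, led by Ckap2 (-0.17, adjusted p = 0.016) and the kinesin gene Kif18a (-0.16, adjusted p = 0.021). Of 17 kinetochore genes 3 fell, led by Spc25 and Cenpm (-0.17 and -0.20), and of 12 condensin and anaphase genes 2, Cdca3 and Ncapd2 (-0.23 and -0.13). Of 24 replisome genes 2 fell (Rfc2 and Asf1b), of 16 licensing and firing genes 1 (Orc5), and of 8 nucleotide supply genes none. Of 13 tested G1 kinases and other inhibitors 3 fell, and of 15 cell cycle transcription genes none. The medians were -0.13 for spindle, -0.12 for kinetochore and -0.12 for condensin genes, against -0.07 for replisome, -0.08 for licensing and -0.06 for nucleotide supply genes. The steeper medians were not confined to the mitotic lists, with -0.12 for G1 kinases and other inhibitors and -0.05 for cell cycle transcription genes. In the labelled lower slope 9 fell, 7.26% beside 1.49% of all genes, and 2 rose (Rbl2 and Rb1, the retinoblastoma gene). There 3 of 16 licensing genes fell, led by Cdc7 and Mcm8, 2 of 24 replisome genes (Prim1 and Chaf1a) and 2 of 8 nucleotide supply genes (Umps and Dtymk), but none of the 19 spindle or 12 condensin genes, and 1 of 17 kinetochore genes (Spc24). Of 15 cell cycle transcription genes 1 fell there, and of 13 tested G1 kinases and other inhibitors none. None of the 124 passed in the test of the difference between the slopes.

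Between the tooth labels 4 of the 124 (3.23%) were higher and 21 (16.9%) lower in labelled upper libraries, beside 18.1% of all genes in each direction, so that the share lower was near that of all genes. Of 12 condensin and anaphase genes 7 were lower, led by Ncapg (-0.32) and Smc4 (-0.23), and of 15 cell cycle transcription genes 6 were lower, led by Rbl2 (-0.32, adjusted p = 6.7e-05) and Rb1 (-0.50, adjusted p = 0.00012). Of the 24 replisome genes none passed. At half-day stages 26 (21%) were higher, beside 7.01% of all genes, and 2 lower. Of the 19 spindle and cytokinesis genes 9 were higher, led by Cdca8 (0.21, adjusted p = 0.0072) and Kif22 (0.19, adjusted p = 0.011), and of the 24 replisome genes 4, led by Uhrf1 (0.21) and the ligase gene Lig1 (0.17). The lists were measured in the same libraries as the module and are no independent evidence of it.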

How the data were processed

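The deposited values are raw counts per gene symbol, whole numbers that the authors did not normalize. The submitters' processing notes name build mm10 with Bowtie2 2.0.2, TopHat2 2.0.6 and HTSeq 0.5.3p9. The annotation used and the strand setting were not given in the sources used here. Libraries came from a kit that does not mark strand, per the labels' protocols, so overlapping genes could share reads. Summary lines (12.6% to 15.1% on no feature and 0.955% to 1.14% ambiguous) were kept out of totals and tests. CPM used the gene totals.

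Genes reaching 0.269 CPM (10 counts at the median depth) in at least 2 libraries were kept, which left 16287. The test was the quasi-likelihood F test of edgeR 4.0.16 (R 4.3.3) with TMM scaling, Benjamini-Hochberg adjustment over all 16287 genes and a threshold of 0.05. Standard errors are log2 values over the square root of F. The fit of the tooth difference held a natural spline of day with 3 degrees of freedom. Slopes were linear in day within each label. The stage-set difference was fitted with the spline, tooth label and tooth label by day. Alternatives were RLE size factors, no filter, DESeq2 1.42.0, leaving out each individual, and added terms. Scripts were tested on simulated data. The labels pair the upper and lower library of an individual by embryo, and residuals of the pair correlated at 0.07 to 0.30. For 3 of 8 individuals the labelled upper library correlated best with its own labelled lower library.

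The members, lists, stage sets and tests were chosen with earlier results of these data known. Leaving out the 2 libraries of low Xist was an alternative added after the data were seen. Genes given with values in every library were chosen by mean CPM or by p within their role, and from each wider list at most 2 were named, by p. P-values measure the spread between single libraries, which within 1 label are those of different embryos. The main fits held no term for the individual. Tests over both labels thus took the upper and lower library labelled as 1 embryo as independent. For the stage-set difference, which lies between embryos, the p-values can be too small for that reason. Of the listed dental epithelium markers 1 is not reported here, and its counts were left out of the sums.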

Additional observations from a re-analysis of the deposited data

Results flagged for a closer look

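Among 80 combinations of gene and label, each with 8 libraries, 3 held a library far from the other 7, where chance marks about 1 in 20. Rrm1 was at 261 CPM in labelled lower individual 3, against 220 to 235 CPM in the others. Rrm2 in that library was at 148 CPM, against 117 to 130 CPM. Ccnd2 was at 922 CPM in labelled upper individual 2, against 735 to 791 CPM.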

How the results depend on the processing

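Single-gene values never changed sign past the threshold. Of the recomputed values 3000 stayed on their side of it, 165 lost it and 115 gained it. RLE scaling and no filter kept every count of members within 1.5 times. DESeq2 gave 14 fallen members in the labelled upper slope, 8 fallen in the labelled lower slope, 1 in the difference of slopes, 11 higher at half-day stages and 1 in the difference between labels, with 2051, 1799, 595 and 345 of all genes called against 999, 670, 209 and 137 in the slopes, their difference and the last. Under DESeq2, 1404 of all genes were higher at half-day stages, and 890 and 785 fell in the labelled upper and lower slopes. The stage set as a term gave 15 lower members in the tooth difference (3323 of all genes). It gave 14 and 5 fallen members in the slopes (2152 and 1789 of all genes called, 901 and 674 of them fallen). The lane as a term gave 0 in all 4 slope counts (2 and 19 of all genes). With the replicate block, which used the pairing by embryo, 14 were lower in the tooth difference and 5 in the difference of slopes (475 of all genes), and 27 of all genes were called in the difference of stage sets; it changed the call of no other member than those named. In labelled upper or lower libraries alone, 2 and 0 were higher and 1 and 0 lower at half-day stages (1345 and 1056 of all genes against 2529). Without the 2 libraries of low Xist the tooth difference gave 3 higher and 20 lower, the labelled lower slope 0 and 0, and the stage set 0 lower. Leaving out individuals in turn gave 3 to 5 higher and 6 to 14 lower members in the tooth difference, 0 to 21 fallen in the labelled upper slope, 0 to 2 risen and 0 to 3 fallen in the labelled lower slope, 0 to 2 lower in the difference of slopes, 0 to 20 higher and 0 to 1 lower at half-day stages, and 0 to 1 lower in the difference between labels. Over all genes the same settings gave 2288 to 2645 higher and 2498 to 2889 lower in the tooth difference. They gave 55 to 654 fallen in the labelled upper slope. In the labelled lower slope 30 to 473 rose and 4 to 285 fell, and in the difference of slopes 6 to 68 were lower. At half-day stages 420 to 976 were higher and 629 to 1175 lower, and 7 to 92 were lower in the difference between labels. Fewer libraries leave fewer degrees of freedom, and beyond that the cause was not tested.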
